A study of Homo sapiens with 4 samples.

Results

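The AP-1 and immediate early transcription factors examined here were 9 genes, FOS, FOSB, FOSL1, FOSL2, JUN, JUNB, JUND, ATF3 and EGR1, out of 14232 genes named on the arrays. They were chosen by name, with earlier results of these data known. Each was read through the brightest transcript cluster that the platform annotation gives to that symbol alone, and all 9 were measured. RNA was hybridised to 4 human exon arrays, 1 for each combination of cell line and plasmid, so no group had a replicate. HepG2 is a line from a liver carcinoma and K562 a line from a chronic myeloid leukaemia with erythroid features. Both had been stably transfected with a plasmid: the ADARkd group of each line carried an siRNA against ADAR1, chosen by the submitters among several for its effect on ADAR, and the SCR group carried a scrambled siRNA. ADAR converts adenosines in double-stranded RNA to inosines, and the series asked how it acts on alternative splicing. All cells were grown with 10% fetal calf serum, HepG2 in DMEM and K562 in RPMI. The sources used here give neither the time between the last change of medium and lysis nor whether a line was 1 clone or a pool. Nothing in the labels says that the cells of the 2 arms were more than 1 culture each.

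AP-1 is a dimer of basic leucine zipper proteins. A FOS protein must pair with a JUN protein, while JUN proteins can also pair with each other, and the dimers bind sites such as TGACTCA in DNA. Such sites were searched for below as TGANTCA, where N is any base, a pattern wider than that site. FOS, FOSB, JUN, JUNB, ATF3 and EGR1 are classical immediate early genes: serum, growth factors or stress switch on their transcription within minutes, without new protein synthesis, and their messages are short-lived. MAP kinases carry the signal to the nucleus, where ERK acts on ternary complex factors that sit with SRF on CArG boxes, and JNK acts on JUN. Dual-specificity phosphatases and Sprouty proteins are themselves induced by the cascade and damp it. In liver cells JUN is known for its part in regeneration and tumour growth, and in erythroid lines AP-1 is known to change when cells are pushed to differentiate.

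The targeted transcript was lower in both lines. ADAR stood at 8.96 (log2 intensity) in SCR and 7.27 in ADARkd on the arrays labelled HepG2, 3.23-fold lower, and at 7.99 and 6.78 in K562, 2.32-fold lower. Median intensities of the 4 arrays were all close to 36.7, the lowest at 36.1. Of 15 measured hepatocyte markers, 2 lay above the low-value filter on the arrays labelled HepG2, CPS1, a urea cycle enzyme, at 10.89 and 10.56, and FOXA1, at 6.13 and 6.23, while ALB, the serum albumin gene, chosen after its values were seen, was at 3.04 and 2.97 there. In K562, CPS1 was at 3.21 and 3.29, and FOXA1, at 5.53 and 5.62, passed the filter there as well. Of 13 fibroblast and stromal markers 7 passed the filter on the arrays labelled HepG2 and 1 in K562, of 9 erythroid markers 1 and 8, and of 13 lymphocyte markers 0 in either line. Over all 14232 genes the filter, set at the median, passed 7116 in each line by its definition. The arrays labelled HepG2 are called HepG2-labelled below, and whether the label is right was not tested. In them the 7 fibroblast markers had a median knockdown difference of -1.12 on the log2 scale. Of the 7, 4 were at least 2-fold lower and 0 at least 2-fold higher, beside 1.57% and 2.46% of all genes that passed the filter. The 2 with a difference above 0 were LUM (0.78) and DCN (0.64). Over all 13 fibroblast and stromal markers the summed intensity was 1645 in SCR and 1838 in ADARkd, against 665 and 604 in K562. Such sums are led by the brightest genes. On the HepG2-labelled arrays these were LUM (9.24 in SCR and 10.02 in ADARkd) and DCN (8.34 and 8.98). In K562 it was SPARC, at 8.77 and 8.53 there and at 3.65 and 3.66 on the HepG2-labelled arrays. The part of these markers in the results below was not tested. In RNA of whole cultures, fewer cells that express a gene and less of its RNA per cell cannot be told apart.

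Genes with low values were set aside line by line: one was kept where the mean of its pair of log2 values in that line reached the median over all genes, 5.31 on the HepG2-labelled arrays and 5.28 in K562. By this filter 7 members were kept on the HepG2-labelled arrays and 6 in K562. FOSB and ATF3 were under it in both lines and FOS in K562. FOSL1 on the HepG2-labelled arrays, with a mean of 5.33, and FOSL2 in K562, with 5.30, lay just inside. Values near or under the filter can be set by background, which was not analysed here. Levels are compared between arrays for one gene, not between genes, because each gene has probes of its own.

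The FOS family supplies the AP-1 subunits that cannot pair among themselves. FOS, the founding member, stood at 6.12 (log2 intensity) in SCR and 6.07 in ADARkd on the HepG2-labelled arrays, and at 4.80 and 4.75 in K562 (transcript cluster 3544525). Both HepG2-labelled values were higher than both K562 values, and the arms of a line were 0.05 and 0.04 apart on the log2 scale. FOSB, an isoform-rich relative that accumulates on repeated stimulation, stood at 5.14 and 4.67 on the HepG2-labelled arrays and at 4.78 and 4.73 in K562 (cluster 3836266). Its lines overlapped, and all its values were under the filter level.

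FOSL1 and FOSL2 encode FRA1 and FRA2, which lack the strong activation domain of FOS and stay on longer after a stimulus. FOSL1 stood at 4.98 in SCR and 5.68 in ADARkd on the HepG2-labelled arrays, and at 5.44 and 5.40 in K562 (cluster 3377988). Its lowest and its highest log2 value were thus the 2 HepG2-labelled ones, with K562 between them. FOSL2 stood at 8.18 and 8.59 on the HepG2-labelled arrays and at 5.26 and 5.35 in K562 (cluster 2474977). It had the widest gap between the lines of all 9 members, and ADARkd was above SCR in both. The promoter of FOSL2 is shown because it is the only one of the members' windows with a match to the AP-1 letters. The stretch runs from 250 bases before the transcription start to 20 bases after it, and the capitals mark TGACTCA, at bases 5 to 11 after the start.
FOSL2 (GRCh38.p14, chr2:28392608-28392877, plus strand): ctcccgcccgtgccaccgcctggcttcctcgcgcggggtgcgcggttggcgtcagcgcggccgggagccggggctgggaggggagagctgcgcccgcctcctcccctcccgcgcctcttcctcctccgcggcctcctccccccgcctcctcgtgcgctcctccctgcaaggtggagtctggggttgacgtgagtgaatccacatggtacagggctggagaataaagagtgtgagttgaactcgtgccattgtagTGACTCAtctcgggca

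The JUN family are the partners that FOS proteins need. JUN, the member most often linked to proliferation, stood at 5.97 in SCR and 5.61 in ADARkd on the HepG2-labelled arrays and at 6.92 and 6.70 in K562 (cluster 2415084). Both K562 values were above both HepG2-labelled ones, and SCR was above ADARkd in each line. JUNB, which can restrain JUN, stood at 7.83 and 8.14 on the HepG2-labelled arrays and at 6.62 and 6.56 in K562 (cluster 3821893). Here the lines were apart in the other direction. JUND, the member expressed steadily in resting cells, stood at 6.96 and 6.61 on the HepG2-labelled arrays and at 6.70 and 6.59 in K562 (cluster 3854877). Its lines overlapped. The windows of JUN and JUND are shown because these are the 2 kept members with SCR above ADARkd in both lines by more than 0.1, and because JUN is known to bind its own promoter through a variant site. The capitals mark matches of 8 letters: TGACATCA at -67 to -60 in JUN, and in JUND the cyclic AMP response element TGACGTCA at -200 to -193 and TGAGCTCA at -54 to -47.
JUN (GRCh38.p14, chr1:58784028-58784297, minus strand): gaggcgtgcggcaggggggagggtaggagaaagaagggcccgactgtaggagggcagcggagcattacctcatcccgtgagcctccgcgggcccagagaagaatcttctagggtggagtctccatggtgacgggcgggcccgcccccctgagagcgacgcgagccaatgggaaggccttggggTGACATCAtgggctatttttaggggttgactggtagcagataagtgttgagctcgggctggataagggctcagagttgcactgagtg
JUND (GRCh38.p14, chr19:18281603-18281872, minus strand): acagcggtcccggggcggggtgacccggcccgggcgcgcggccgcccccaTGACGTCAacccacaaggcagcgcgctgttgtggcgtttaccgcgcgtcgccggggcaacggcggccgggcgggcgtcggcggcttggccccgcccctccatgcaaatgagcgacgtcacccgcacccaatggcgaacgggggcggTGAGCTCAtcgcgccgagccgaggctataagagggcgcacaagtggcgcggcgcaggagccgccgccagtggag

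ATF3, a stress-induced basic leucine zipper protein that often represses, stood at 4.34 in SCR and 4.91 in ADARkd on the HepG2-labelled arrays and at 4.87 and 4.78 in K562 (cluster 2379132). All 4 values lay under the filter level, and only the HepG2-labelled SCR array was apart from the other three. EGR1, a zinc finger factor outside AP-1 that responds to the same signals, stood at 7.78 and 8.43 on the HepG2-labelled arrays and at 8.35 and 8.15 in K562 (cluster 2830861). Like those of FOSL1, its 2 HepG2-labelled values enclosed the K562 pair. The promoter of EGR1 is shown for its pair of CArG boxes, the sites of SRF, in capitals: CCATATTAGG at -105 to -96 and CCATATATGG at -83 to -74.
EGR1 (GRCh38.p14, chr5:138465229-138465498, plus strand): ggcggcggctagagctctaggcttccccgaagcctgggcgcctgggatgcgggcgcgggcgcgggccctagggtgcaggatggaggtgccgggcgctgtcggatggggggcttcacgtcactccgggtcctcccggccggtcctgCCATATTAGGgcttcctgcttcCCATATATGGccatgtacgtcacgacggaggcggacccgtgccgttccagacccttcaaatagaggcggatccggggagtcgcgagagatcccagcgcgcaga

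**Figure D1:**
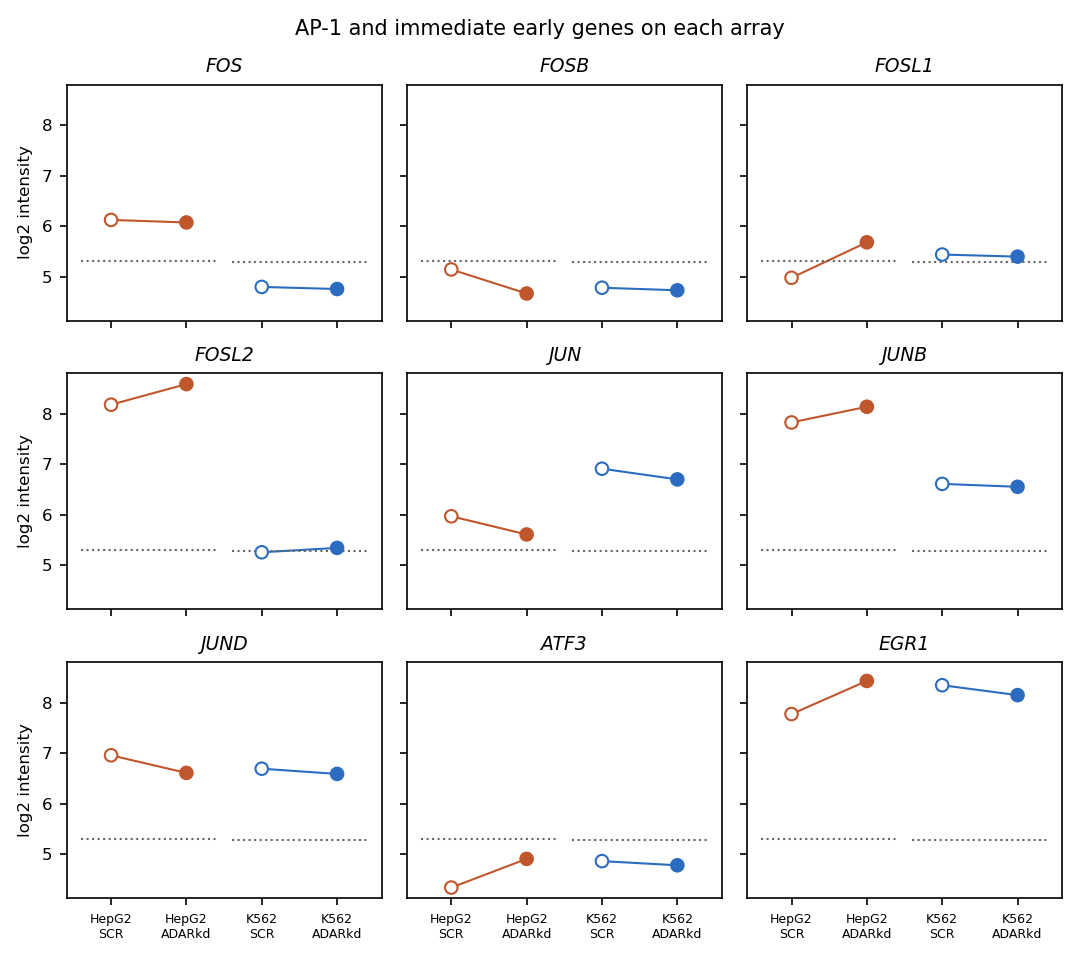
Log2 intensity of each of the 9 genes on the 4 arrays (vertical axis, log2 intensity; horizontal axis, array), open for SCR and filled for ADARkd, orange for HepG2-labelled and blue for K562; dotted lines are the filter levels of 5.31 and 5.28. FOSL2, JUNB and FOS sit higher on the HepG2-labelled arrays, JUN sits higher in K562, and FOSB and ATF3 stay under the dotted lines.

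RefSeq promoter windows of 300 bases, 250 before the start and 50 after, were available for 8 members; FOSL1 had none. ATF3 had 2 windows, for 2 starts. TGANTCA, searched on both strands, was found in the window of FOSL2, and in 7.71% of 35116 windows of all genes. TGACGTCA was found in JUND, and in 1.85% of windows. The CArG box was found in EGR1, and in 1.29% of windows. TGANNTCA, a pattern added after the sequences were seen and which takes in TGACGTCA, was found in JUN, in JUND and in the first window of ATF3, where TGACATCA lies at -123 to -116, and in 11.5% of all windows. FOS, FOSB and JUNB had no match to these letters within the windows. Sequences and starts are those of RefSeq on GRCh38.p14, whereas the submitters' processing notes name hg18, so the windows are not tied to the array's probes.

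**Figure D2:**
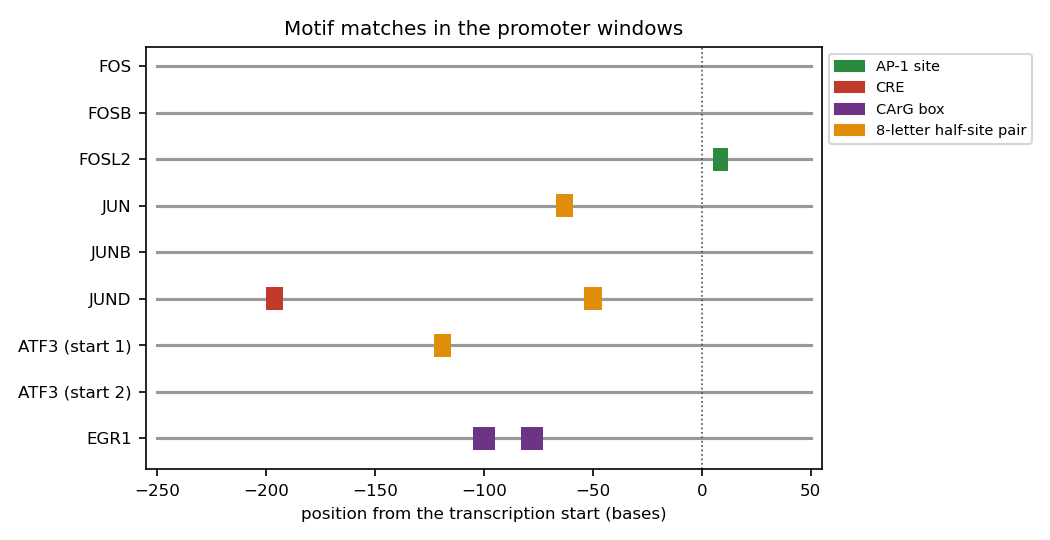
Positions of motif matches in the 9 promoter windows of the 8 members with one (horizontal axis, bases from the transcription start; one row per window; coloured boxes, matches; dotted line, start). EGR1 holds 2 CArG boxes, JUND a CRE, FOSL2 an AP-1 site just after the start, and JUN, JUND and ATF3 the 8-letter pattern TGANNTCA.

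The first comparison asked how the members differed where ADAR was lowered in the HepG2-labelled cells. FOSL1 and EGR1 were the 2 kept members with the highest differences, and JUN and JUND had the lowest. On the log2 scale FOSL1 differed by 0.70, which is 1.63-fold higher in ADARkd, and EGR1 by 0.66, which is 1.58-fold. FOSL2 differed by 0.41 and JUNB by 0.31. FOS, at -0.05, was nearly level between the arms. JUN was 1.28-fold lower in ADARkd, with a log2 difference of -0.36, and JUND 1.27-fold lower, with -0.35. Under the filter, ATF3 differed by 0.57 and FOSB by -0.48.

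With 1 array per arm none of these differences has a replicate check, and no test was made. None of the 7 kept members was 2-fold apart. Among all 7116 kept genes 2.46% were at least 2-fold higher in ADARkd and 1.57% at least 2-fold lower. At 1.5-fold, 2 of the 7 were higher, FOSL1 and EGR1, and 0 lower, beside 12.4% of kept genes higher and 5.73% lower. FOSL1 had an SCR value under the filter level and was kept through its ADARkd value, so its difference and its rank are uncertain. FOSL1 lay above 92.0% of kept genes by its difference and EGR1 above 90.4%, while JUN lay above 12.4% and JUND above 13.1%. The median difference of the 7 members was 0.31, against 0.11 for all kept genes. After quantile normalization the members' median was 0.17 and that of all kept genes 0.01, and after cyclic loess they were 0.18 and 0.01. EGR1 then differed by 0.53 and 0.50, under 1.5-fold, and FOSL1 by 0.65 and 0.72. With 16 added to each intensity before log2, FOSL1 differed by 0.50, under 1.5-fold, and EGR1 by 0.62. The signs of all 9 members on these arrays were the same under quantile normalization, loess and the added 16. The split of kept genes was more even after rescaling: 879 higher and 408 lower by 1.5-fold as deposited, 602 and 539 after quantile normalization, and 635 and 543 after loess. At 2-fold it was 175 and 112 as deposited, 124 and 140 after quantile normalization, and 132 and 135 after loess.

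**Figure D3:**
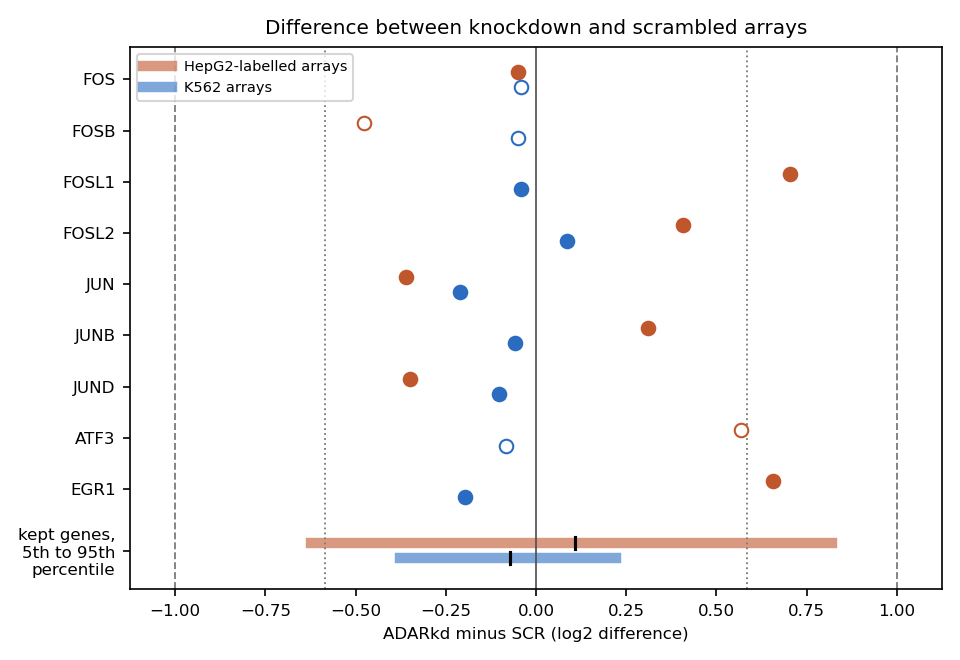
ADARkd minus SCR of the 9 members (horizontal axis, log2 difference) on HepG2-labelled arrays (orange) and in K562 (blue), filled where the gene passed the filter in that line; dotted and dashed lines mark 1.5-fold and 2-fold, and the bars at the bottom span the 5th to 95th percentile of kept genes with their median. On the HepG2-labelled arrays the members spread from -0.48 to 0.70; in K562 they stay between -0.21 and 0.09.

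In K562 the members hardly differed between the arms. JUN had the lowest difference, -0.21 on the log2 scale, which is 1.16-fold lower in ADARkd, and EGR1 the next, -0.20. JUND was at -0.10, JUNB at -0.06 and FOSL1 at -0.04, and FOSL2 alone was above 0, at 0.09. Under the filter, ATF3 was at -0.08, FOSB at -0.05 and FOS at -0.04. None of the 6 kept members reached 1.5-fold, beside 0.267% of 7116 kept genes at least 1.5-fold higher and 0.759% at least 1.5-fold lower. At 2-fold the shares were 0.0281% and 0.126%. The SD of all kept genes' differences was 0.19 here and 0.47 on the HepG2-labelled arrays. The median of the 6 members, -0.08, was close to that of all kept genes, -0.07. JUNB changed sign after quantile normalization (0.04) and loess (0.02), and the other 8 members kept theirs under both.

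The effect common to both lines was fitted with limma on the 6204 genes kept in both. Of these, 0 passed at a Benjamini-Hochberg adjusted p under 0.05 in either direction (0% called), and 179 had an unadjusted p under 0.05. The 6 members tested had shared log2 differences from -0.29 for JUN to 0.33 for FOSL1. The 95% intervals were -0.73 to 0.16 for JUN and -0.16 to 0.82 for FOSL1. No change lay inside both, as did a value 1.5-fold lower for JUN and 1.5-fold higher for FOSL1. The fit has 1 residual degree of freedom, which is how far apart the 2 lines are in their knockdown response. Whether the knockdown difference of FOSL1 or EGR1 differs between the lines leaves no degree of freedom and was not tested.

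The lines themselves were compared next, over both arms. FOSL2 was 8.47-fold higher on the HepG2-labelled arrays, with a K562 minus HepG2 log2 difference of -3.08 ± 0.21 (SE, 2 arrays per line; limma adjusted p = 3.96e-05). JUNB was 2.64-fold higher there, at -1.40 ± 0.21 (limma adjusted p = 0.00188), and FOS 2.50-fold, at -1.32 ± 0.20 (limma adjusted p = 0.0019). JUN was 2.02-fold higher in K562, at 1.02 ± 0.20 (limma adjusted p = 0.00557). Thus 3 of the 7 members tested passed as higher on the HepG2-labelled arrays and 1 as higher in K562, at an adjusted p under 0.05 and at least 2-fold. Over all 8028 genes tested, 14.7% passed as higher on the HepG2-labelled arrays and 10.3% as higher in K562. FOSL2 and FOS lay under the filter level on at least 1 K562 array, so the sizes of their differences are uncertain. FOS entered the test through its HepG2-labelled values alone.

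JUN stood at the edge of the 2-fold bound. Its difference was 0.94 on the SCR arrays alone, 0.96 after loess and 0.84 with 16 added, and the call ended there, while the limma adjusted p stayed under 0.05 in the last 2 settings (0.0064 and 0.00781). FOS also fell short of 2-fold with 16 added (-0.96). JUND, EGR1 and FOSL1 did not pass. Their 95% intervals for K562 minus HepG2 ran from -0.62 to 0.33, from -0.45 to 0.75 and from -0.49 to 0.67, so none of them leaves room for a 2-fold difference in the mean over arms. For EGR1 and FOSL1 that mean joined opposite values: on SCR arrays alone K562 was higher by 0.57 and 0.46, and on ADARkd arrays alone the differences were -0.28 and -0.28. FOSL1 changed sign after loess (-0.04). The 2 arrays of a line differ in plasmid, so these p-values and errors rest on 1 residual degree of freedom and on the spread limma takes over from other genes, not on replicate cultures.

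**Figure D4:**
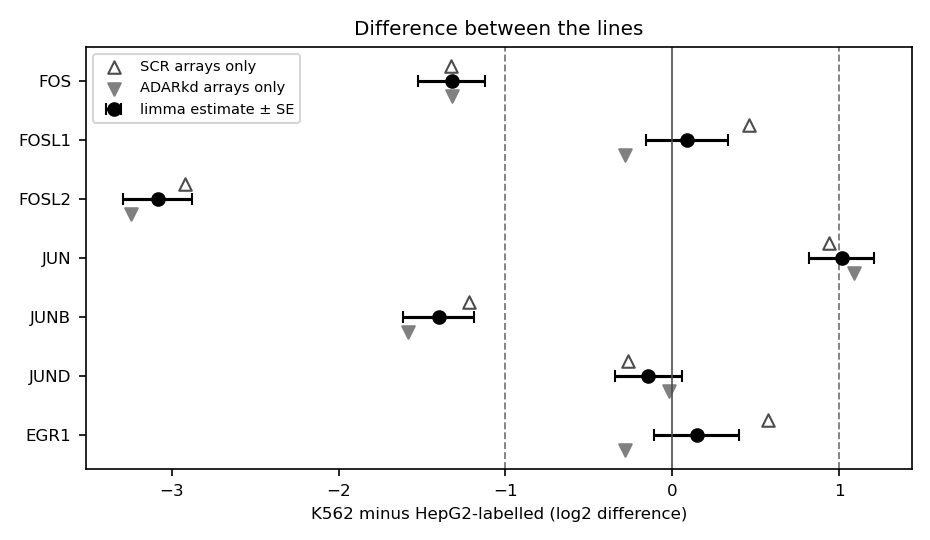
K562 minus HepG2-labelled log2 difference of the 7 members tested (horizontal axis; circles with bars, limma estimate and SE over 2 arrays per line; triangles, the same difference on SCR or ADARkd arrays alone); dashed lines mark 2-fold. FOSL2, JUNB and FOS lie left of the 2-fold line under both arms, JUN lies on it, and for EGR1 and FOSL1 the arms fall on opposite sides of 0.

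The gene lists that follow were chosen with earlier results of these data known. Their shares and those of all genes are therefore not on one footing. Basic leucine zipper genes outside the 9 members differed both ways between the arms of the HepG2-labelled arrays. Of 18 other basic leucine zipper genes listed, 15 were measured and 7 kept there, with a median knockdown difference of 0.36, 3 at least 1.5-fold higher and 0 lower, beside 12.4% and 5.73% of all kept genes. CREB1, which binds the cyclic AMP response element, differed by 0.83, JDP2, a repressor that pairs with JUN, by 0.79, DDIT3 (CHOP), a stress factor, by 0.70, and MAFG by -0.45. In K562, CREB1 differed by -0.26, JDP2 by -0.29, MAFA by -0.33 and DDIT3 by -0.69. DDIT3 was thus the 1 gene of 8 kept there at least 1.5-fold lower, and 0 were higher. Of all kept genes in K562, 0.759% were that much lower and 0.267% higher. With no filter on low values the list's median on the HepG2-labelled arrays was -0.06. Between the lines, JDP2 (-1.56 ± 0.28, limma adjusted p = 0.00406) and DDIT3 (-1.04) passed as higher on the HepG2-labelled arrays and 0 of 8 as higher in K562, beside 14.7% and 10.3% of all genes tested. The call of DDIT3 ended on the SCR arrays alone (-0.34), after quantile normalization (-0.98) and with 16 added (-0.91). BATF3, at 0.90, fell short of 2-fold, and ATF7 and MAFG, at -0.52 and 0.26, did not pass.

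Some other immediate early genes had knockdown differences on the HepG2-labelled arrays above those of all 9 members. Of 27 listed, 20 were measured and 16 kept there: 5 were at least 2-fold higher in ADARkd and 0 at least 2-fold lower, beside 2.46% and 1.57% of all kept genes, with a median of 0.38. With 16 added the 5 became 2, and with the 75th percentile filter 1 of 10. CCN1, a matricellular protein, stood at 6.86 in SCR and 9.22 in ADARkd, a difference of 2.35. PHLDA1 differed by 1.21, KLF4, a zinc finger factor of epithelia, by 1.15, CCN2 by 1.10 and KLF6 by 1.09. KLF4 and KLF6, with SCR values of 5.27 and 4.80, were kept through their ADARkd values. CCN1 and CCN2 are known also as targets of YAP. In K562, 0 of 13 kept genes were 1.5-fold apart, and TRIB1 (-0.39), DUSP1 (-0.31), KLF10 (-0.28) and KLF6 (-0.22) lay lowest. CCN1, KLF4 and CCN2 were under the filter there. Between the lines 8 of 16 passed as higher on the HepG2-labelled arrays and 0 as higher in K562, beside 14.7% and 10.3% of all genes tested. Among the 8 were CCN1 (-3.62 ± 0.47, its K562 side under the filter), DUSP1 (-3.52 ± 0.20) and IER3 (-2.64 ± 0.22), a survival factor. KLF4 and CCN2 were also among them, with their K562 side under the filter. All 16 tested were kept on the HepG2-labelled arrays and 13 in K562, so the filter added genes on the HepG2-labelled side alone.

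The kept genes of the MAP kinase cascade were all within 2-fold between the arms on the HepG2-labelled arrays. Of 35 listed, 23 were measured and 18 kept on the HepG2-labelled arrays, with a median of 0.19, 2 at least 1.5-fold higher and 0 lower, beside 12.4% and 5.73% of all kept genes. The 2 were kinases upstream of p38, MAP2K3 (0.88) and MAP2K6 (0.82); RPS6KA4, which phosphorylates CREB and histones, differed by 0.56 and MAPK8, which encodes JNK1, by 0.47. SRF, which occupies CArG boxes, was at 6.84 and 6.99 there and at 7.23 and 7.01 in K562. In K562, RPS6KA3 differed by -0.40, MAPK9 by -0.38, MAP3K5 by -0.35 and MAPKAPK2 by -0.29, and 0 of 17 reached 1.5-fold. Between the lines MAP2K6 (-4.78 ± 0.25) and RPS6KA3, which stood at 7.48 and 7.87 against 6.87 and 6.47 in K562, passed as higher on the HepG2-labelled arrays, 2 of 18 beside 14.7% of all genes tested. MAP2K6 stood at 3.14 and 3.15 in K562, under the filter level, so the size of its difference is uncertain. The call of RPS6KA3 ended on the SCR arrays alone (-0.61), after quantile normalization (-0.92) and with 16 added (-0.90). HRAS (-0.73) and MAP3K7 (0.77) fell short of 2-fold, and MAPKAPK2 (0.36) did not pass.

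The feedback inhibitors of the cascade are themselves genes that ERK signalling induces. Of 18 listed, 17 were measured and 12 kept on the HepG2-labelled arrays. In ADARkd 4 were at least 2-fold higher there and 0 at least 2-fold lower, beside 2.46% and 1.57% of all kept genes, with a median of 0.38. With the 75th percentile filter 1 of 6 was. DUSP4 stood at 4.41 in SCR and 6.23 in ADARkd (1.83), ERRFI1, an inhibitor of the EGF receptor, at 7.22 and 8.52 (1.30), DUSP5 at 5.79 and 7.04 (1.26) and DUSP6 with a difference of 1.17. DUSP4, with its SCR value under the filter level, was kept through its ADARkd value, so its size is uncertain. DUSP1, the phosphatase that prefers JNK and p38, was at 10.41 and 10.28, and DUSP2, named after its value was seen, differed by -0.64. In K562, 0 of 12 reached 1.5-fold, and the median was 0.00 (0.0003). DUSP1 (-0.31), SPRY2 (-0.28) and SPRED2 (-0.19) were the lowest and DUSP14 (0.16) the highest. Between the lines, where 14.7% of all genes tested passed as higher on the HepG2-labelled arrays and 10.3% as higher in K562, 6 of 15 passed as higher on the HepG2-labelled arrays, led by DUSP1 and followed by DUSP6 (-2.89 ± 0.32) and ERRFI1 (-2.06 ± 0.33), and 1 as higher in K562, SPRY4 (2.27 ± 0.33). DUSP6 in K562 and SPRY4 on the HepG2-labelled arrays lay under the filter level, so the sizes of their differences are uncertain. DUSP4 and DUSP5, also among the 6, lay under it in K562 too. Of the 15 tested, 12 were kept on the HepG2-labelled arrays and 12 in K562. DUSP9 (0.79) and SPRY1 (0.68) fell short of 2-fold.

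Factors that degrade or hold back AP-1 and EGR1 differed by less than 2-fold. Of 12 listed, 9 were measured and 8 kept on the HepG2-labelled arrays, with a median of 0.24. NAB1, a corepressor of EGR1, differed by 0.61, ZFP36L1, which destabilises AU-rich messages, by 0.55, GSK3B, a kinase that marks JUN for degradation, by 0.34 and DET1 by -0.43. Only NAB1 reached 1.5-fold, so that 1 of 8 was higher and 0 lower, beside 12.4% and 5.73% of all kept genes. After quantile normalization, after loess and with 16 added, 0 of the list reached it. In K562, NAB1 was at -0.35, GSK3B at -0.26, ZFP36L1 at -0.21 and DET1 at -0.20. Between the lines GSK3B (-1.49 ± 0.23) and ZFP36L1 (-1.31 ± 0.24) passed as higher on the HepG2-labelled arrays, 2 of 9 beside 14.7% of all genes tested. MEN1 (0.77) fell short of 2-fold, and ZFP36L2 (0.48) and NAB2 (0.39) did not pass.

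Genes long known to carry AP-1 sites in their control regions were split. Of 25 listed, 22 were measured and 10 kept on the HepG2-labelled arrays, where 4 were at least 2-fold higher in ADARkd and 0 at least 2-fold lower, beside 2.46% and 1.57% of all kept genes, with a median of 0.48. With the 75th percentile filter 2 of 7 were, with a median of 0.06. The 4 were the chemokine CXCL8 (4.64), the cytokine IL6 (4.46), the G1 cyclin CCND1 (1.20) and EREG, a ligand of the EGF receptor (1.13). CXCL8 and IL6 were kept through their ADARkd values, with SCR values of 4.36 and 3.16. With that, and with the list chosen when earlier results were known, its share cannot be read as an excess over all kept genes. The collagenase MMP1, a model AP-1 target, stood at 3.30 in SCR and 2.98 in ADARkd, under the filter level, and the stromelysin MMP3 at 3.55 and 3.17; both were chosen after their values were seen. PLAUR, the urokinase receptor, was at 7.76 and 7.60. VIM, at 9.41 and 8.85, had the lowest difference of the kept genes of the list, -0.55. At least 1.5-fold lower were 0 of the list as deposited, and 1 after quantile normalization (-0.70) and after loess (-0.71). With no filter the list's median was 0.02, and as the mean of all transcript clusters 0.16. In K562 the 4 kept genes were TIMP1 (-0.40), TNFRSF10B (-0.23), VIM (-0.19) and PLAUR (-0.14). Between the lines 5 of 10 passed as higher on the HepG2-labelled arrays, among them EREG (-4.59 ± 0.24), CD44 (-4.32 ± 0.20) and CCND1 (-2.74 ± 0.32), and 0 as higher in K562, beside 14.7% and 10.3% of all genes tested. These 3 lay under the filter level in K562, so the sizes of their differences are uncertain. So did LIF (-1.84), also among the 5 and named after its value was seen. All 10 tested were kept on the HepG2-labelled arrays but only 4 in K562. The filter thus added genes on the HepG2-labelled side alone, and the split between the lines partly follows from it.

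**Figure D5:**
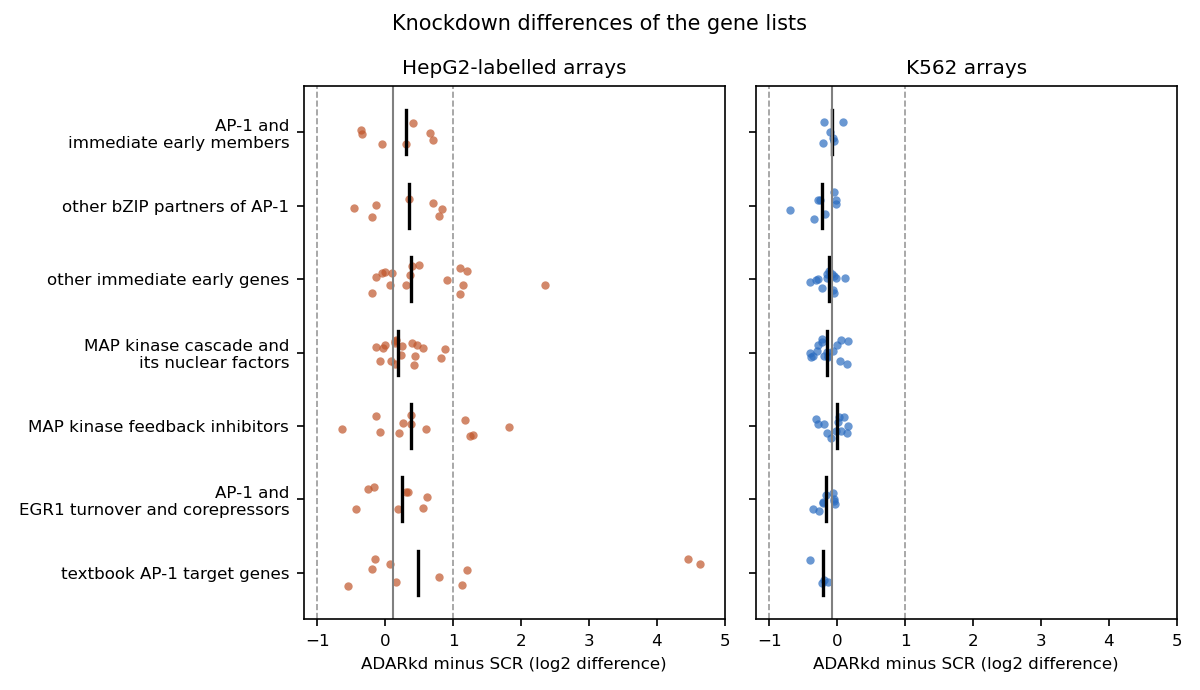
ADARkd minus SCR (horizontal axis, log2 difference) of the kept genes of the members and 6 related lists on HepG2-labelled arrays (left) and in K562 (right); points are genes, spread vertically at random, black bars list medians, the grey line the median of all kept genes (0.11 and -0.07), dashed lines 2-fold. On the left, CXCL8 and IL6 reach 4.64 and 4.46 and the members stay inside 2-fold; on the right all points lie inside 2-fold.

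The genes whose 4 values, centred on their mean, came nearest to each kept member were found among 8027 others. The measure was the Euclidean distance over the 4 arrays on the log2 scale. FOSL1 was nearest to DHODH (distance 0.033) and SCRN3 (0.045), EGR1 to GNG5 (0.027) and SPR (0.034), and FOSL2 to SIPA1L2 (0.025) and MGLL (0.053). JUNB was nearest to SHOC2 (0.024), a scaffold of RAF activation, and PPP1R15B (0.046), JUN to LTBP4 (0.035) and PSME3IP1 (0.065), JUND to KLHDC3 (0.043) and CDR2L (0.048), and FOS to TMSB10 (0.050) and JUP (0.057). None of the 14 was a member of the 7 lists. These distances describe 4 arrays and carry no test.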

How the data were processed

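The deposited table holds 1 intensity per transcript cluster and array on a linear scale. Per the submitters' processing notes, the authors' processing names RMA, with no version, and the build hg18. Of 17881 clusters, 14432 had 1 symbol in the platform annotation, 2408 several and 1041 none, and only the first kind was used; 14404 were found in RefSeq by Entrez number and 0 symbols changed. Each gene took the cluster with the highest mean log2 value (197 genes had several). Log2 was taken without an offset. Differences within a line have no test. K562 minus HepG2 (line and arm as terms, genes kept in either line) and the shared knockdown effect (genes kept in both) were two-sided tests in limma 3.58.1 under R 4.3.3, by lmFit and eBayes (trend on) with Benjamini-Hochberg adjustment. These fits were first run on simulated data with 1 spread for all genes and no difference in knockdown response between the lines. That run therefore does not check the p-values under the spread of the real arrays. The number of arrays limits the precision.

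The members and gene lists were chosen with earlier results of these data known. Beside the 9 members, the genes named were, per list, up to 4 with the largest difference per line and up to 3 each way between lines; a gene outside this rule is marked as such. No protein sequences were used. Figures were drawn with matplotlib 3.10.9.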

Additional observations from a re-analysis of the deposited data

Results flagged for a closer look

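Of 46 genes kept in both lines and chosen as members, by the naming rule of the lists or beside it, 19 had knockdown differences of opposite sign on the HepG2-labelled arrays and in K562, at least 1.5-fold apart. Over all 6204 genes kept in both lines, 1008 did (16.2%), 888 of them with the HepG2-labelled difference above 0. Most of the 46 were chosen for large differences, so the 2 shares are not on one footing. In 18 of the 19 the HepG2-labelled difference was the one above 0. With 1 array per arm the difference between the lines was not tested. Among the members, the HepG2 difference exceeded that of K562 by 0.74 on the log2 scale for FOSL1 and by 0.85 for EGR1. Among the other basic leucine zipper genes the gap was 1.09 for CREB1, 1.08 for JDP2 and 1.39 for DDIT3. Among other immediate early genes it was 1.33 for PHLDA1, 1.32 for KLF6 and 0.77 for KLF10. In the MAP kinase cascade it was 0.79 for RPS6KA3, 0.66 for MAPK8, 0.63 for MAPK9 and 0.59 for HRAS. Among the feedback inhibitors it was 1.39 for ERRFI1 and 0.66 for SPRY2. For DUSP2, the exception, the HepG2-labelled difference was below that of K562 (-0.74). The erythroid marker TFRC, the transferrin receptor, had a gap of 0.65. For NAB1, ZFP36L1 and GSK3B it was 0.96, 0.76 and 0.60. The medians of all kept genes, 0.11 and -0.07, lie apart in the same direction.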

How the results depend on the processing

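The shared knockdown fit sets the arms against each other within a line; a block by replicate number was not fitted, since the labels number no replicates and each group has 1 array. Over the alternatives that applied to each, 135 counts were taken as unmoved and 29 as moved, and 281 single values as unmoved and 2 as moved. A count was unmoved within 1.5-fold of its main value, or where both were 0. A knockdown difference was unmoved within 1 SD of all kept genes' differences. A difference from a fit that was not called was unmoved even where its sign changed. EGR1 between the lines was such a case, at 0.15 over both arms and -0.28 on the ADARkd arrays alone. The alternatives were no filter, a 75th percentile filter, quantile normalization, cyclic loess, 16 added before log2, the mean of a gene's clusters, and, for the fits, 1 arm alone, no arm term and no intensity trend. Many of the single values could not move. The filters and the mean of clusters left each member's differences as they were. Dropping the arm term or the trend left the members' estimates as they were, and only errors and p-values could change. The tally is therefore not a measure of how firm the results are. No called value of a member reversed. Members at least 1.5-fold higher on the HepG2-labelled arrays numbered 1 in place of 2 with the 75th percentile filter, where FOSL1 was not kept, with quantile normalization and loess, where EGR1 fell short, and with 16 added, where FOSL1 did. Members higher in K562 numbered 0 in place of 1 on the SCR arrays alone, with the 75th percentile filter, where JUN was not kept, with loess and with 16 added.

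Counts over all genes moved mostly with the filter. With no filter they were 693 (at least 1.5-fold lower) and 199 (2-fold lower) on the HepG2-labelled arrays, and 170 (1.5-fold higher), 16 (2-fold higher) and 14 (2-fold lower) in K562. With the 75th percentile filter they were 450, 148, 75 and 41 (1.5-fold higher and lower, 2-fold higher and lower) on the HepG2-labelled arrays, 1, 13, 0 and 1 in K562, and 711 higher on the HepG2-labelled arrays against 448 higher in K562 between the lines. In K562, 19 genes were 1.5-fold higher and 54 lower as deposited, against 41 and 26 after quantile normalization and 11 and 19 with 16 added, which also left 0 at 2-fold higher there and 103 on the HepG2-labelled arrays. After loess the K562 counts were 25 and 39.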
